A study of Mus musculus with 12 samples.

Results

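Genes that mark the fetal liver, and the factors known to silence them after birth, were followed in 12 mouse livers. The set was made up of 8 genes chosen by name, Afp, Gpc3, Cd24a, Alb, Zhx2, Zbtb20, Hnf4a and Lin28b. A probe set counted as a member when the platform annotation gave that gene as its single symbol, which gave 9 probe sets for 8 genes out of 34760 probe sets and 19937 named genes on the array. Zbtb20 had 2 probe sets and each other gene had 1. The livers came from male mice, 3 for each of 4 groups on the C57BL6/JJmsSlc background, and each group's animals had different mothers or recipients. Atf7-/- mice were either products of in vitro fertilization (IVF) or of natural mating, and so were the WT mice. Atf7-/- mice lack ATF7, a stress-responsive transcription factor that recruits histone H3K9 methyltransferases. Oocytes for IVF came from superovulated females, and the embryos were grown in culture and moved at the 2-cell stage into pseudopregnant ICR females. IVF livers thus differed from naturally conceived ones in superovulation, fertilization, culture, transfer and recipient strain together. The paper also reports tendencies to slightly larger litters with IVF and, in WT mice, to lower body weight. The labels give an age of 4 weeks and the study's methods 3 weeks, and no group differed in the stated age. RNA of each liver was hybridised to one Affymetrix Mouse Gene 1.0 ST array. In whole tissue, fewer cells of a type and less RNA per cell cannot be told apart.

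The fetal liver makes alpha-fetoprotein (AFP), the serum carrier that albumin replaces, and its hepatoblasts carry oncofetal surface proteins such as glypican-3. Around and after birth the zinc-finger factors ZHX2 and ZBTB20 shut Afp down in hepatocytes, while the nuclear receptor HNF4A drives the adult hepatocyte programme. LIN28B, an RNA-binding protein of fetal tissues, blocks maturation of the let-7 microRNAs.

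Hnf4a was the member that stood out. Its level was high in naturally conceived Atf7-/- livers and lower in the 3 other groups, whose livers lay between 10.76 and 11.28. Cd24a was higher in IVF than in naturally conceived WT livers. Afp, Gpc3, Alb, Zhx2, Zbtb20 and Lin28b passed the test in none of the 6 comparisons. A gene was called when limma's adjusted p was at most 0.05 and the log2 fold change at least 0.6 in either direction, the thresholds named in the study's methods. All values below are log2 expression values from the authors' robust multi-array average (RMA), which give differences of 1 probe set between livers and not levels of 1 gene against another.

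**Figure D1:**
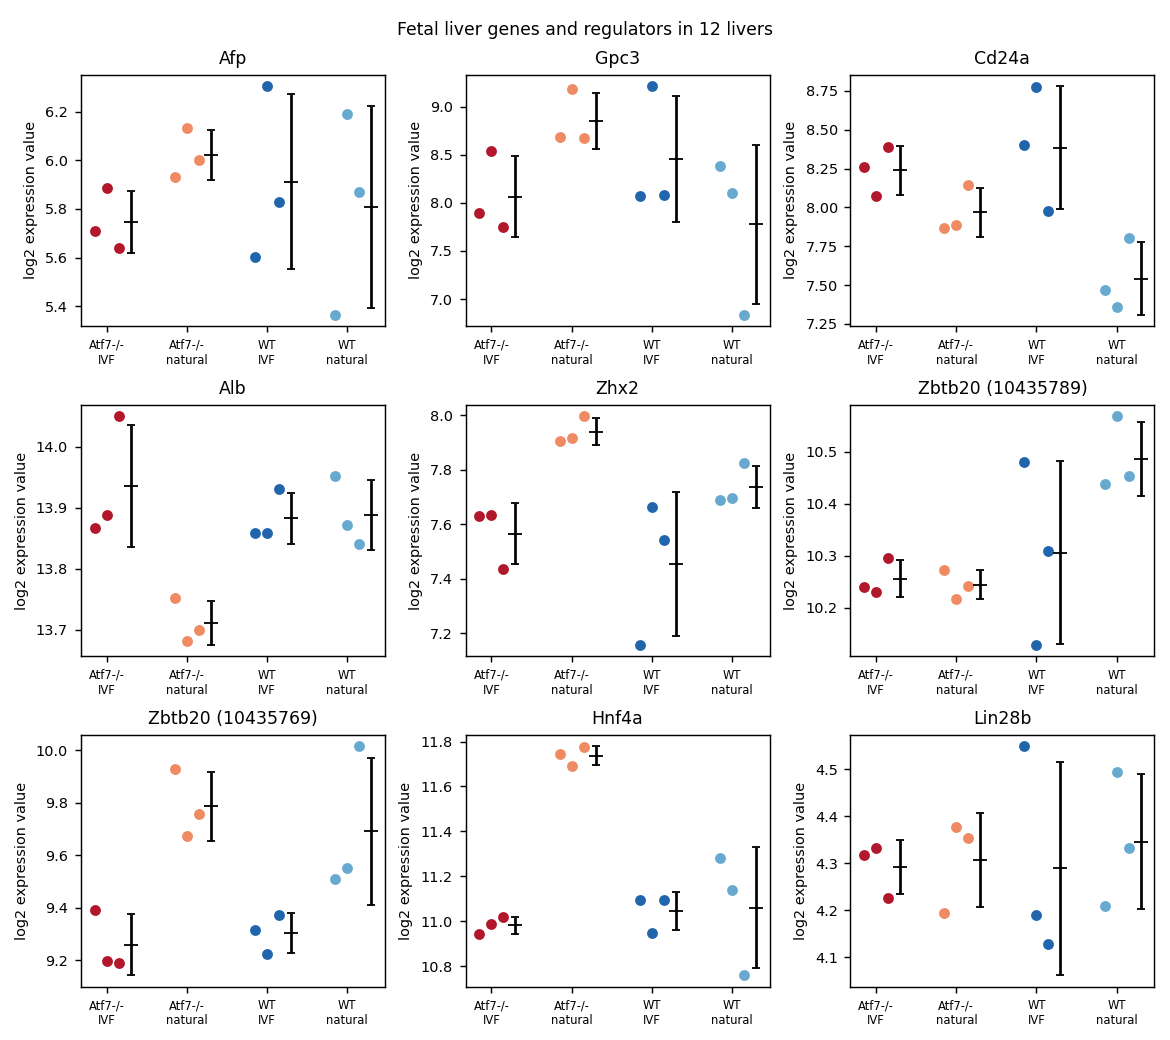
Log2 expression value of each of the 9 probe sets in the 12 livers, with 1 point per liver and the group mean ± SD beside it (n = 3). Axes differ between panels. Hnf4a lay between 11.69 and 11.78 in naturally conceived Atf7-/- livers, above every other liver, and Cd24a lay between 7.98 and 8.77 in WT IVF livers, above the 7.36 to 7.80 of naturally conceived WT livers.

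The arrays were alike in overall level, with medians between 6.216 and 6.339, and arrays of the same group correlated at 0.980 to 0.990 over all probe sets. The third array of the WT natural mating group correlated least with its group. The targeted gene followed the genotype labels. One Atf7 probe set lay at 5.34 to 5.68 in Atf7-/- IVF livers and 5.82 to 6.11 in Atf7-/- natural mating livers, against 7.56 to 8.38 in WT IVF livers and 8.58 to 8.94 in WT natural mating livers. A second Atf7 probe set lay at 8.28 to 8.72 in the Atf7-/- livers and 8.70 to 9.27 in the WT livers. For IVF in WT the former was called lower (-0.74, adjusted p = 0.0384 by limma) and the second was not (-0.26, adjusted p = 0.190). In Atf7-/- livers they differed by -0.44 and -0.31 with IVF and neither was called. The paper, which lists qRT-PCR primers for Atf7, reports no change of its mRNA with IVF. By western blot it also reports similar ATF7 protein in IVF and naturally conceived livers. Where either probe set lies relative to the deleted part is not given in the sources used here. All livers had the hepatocyte signature, since the 10 measured hepatocyte markers averaged 12.97 to 13.20 on every array. None was called in any comparison, where 0.00575% to 7.5% of all probe sets were, and their log2 fold changes lay between -0.52 and 0.47. At an unadjusted p under 0.05 by limma, 7 of the 10 passed for IVF in Atf7-/- (26% of all probe sets). After natural mating 4 of the 10 did so for Atf7-/- against WT (26.6% of all), and 0 to 2 in the other comparisons. The median difference over all probe sets lay between -0.04 and 0.03 in every comparison.

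Hnf4a encodes hepatocyte nuclear factor 4 alpha, a nuclear receptor that activates apolipoprotein, coagulation factor, bile acid and drug-metabolism genes in the liver. The gene has a pair of start regions, an upstream one (P2) used in pancreas and in fetal liver, and a downstream one (P1) used in adult hepatocytes. The single Hnf4a probe set does not separate transcripts of the 2 starts. The windows around both are shown because the gene's level was the one that moved most clearly. Each runs 250 bases before to 50 bases after the RefSeq start on GRCm38.p6, written in the direction of transcription, and the upstream window lies at chr2:163506607-163506906 and the downstream one at chr2:163546905-163547204, both on the plus strand. They begin 40298 bases apart. Capitals mark matches on either strand to any of these motifs. GTTAAT is the half-site of HNF1, a homeodomain activator of liver genes. CCAAT is the box bound by NF-Y and read by C/EBP factors in some promoters. TATAAA is the TATA box. TGACG is the half-site of the cAMP response element, to which the ATF family binds, and it also lies within the full element, TGACGTCA. CAAAGTCCA is a site of HNF4.
Hnf4a upstream start: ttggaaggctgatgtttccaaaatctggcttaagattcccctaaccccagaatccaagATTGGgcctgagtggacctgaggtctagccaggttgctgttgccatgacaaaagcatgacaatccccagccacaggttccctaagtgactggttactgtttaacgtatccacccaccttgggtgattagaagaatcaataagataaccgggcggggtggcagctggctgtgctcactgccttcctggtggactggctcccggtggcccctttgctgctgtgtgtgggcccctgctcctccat
Hnf4a downstream start: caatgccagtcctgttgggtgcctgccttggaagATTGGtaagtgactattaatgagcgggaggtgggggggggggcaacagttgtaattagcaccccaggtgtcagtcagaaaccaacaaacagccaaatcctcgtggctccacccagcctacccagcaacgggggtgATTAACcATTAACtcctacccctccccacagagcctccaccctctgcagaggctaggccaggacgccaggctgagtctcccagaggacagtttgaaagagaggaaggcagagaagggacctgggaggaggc

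The downstream window held the HNF1 half-site at 2 places on the minus strand, starting at bases -81 and -74 from the start, and the upstream window held none. Of 32851 promoter windows of the same length, 7.1% held that half-site, 37.4% the CCAAT box, 13.6% the TATA box, 20.8% the ATF half-site, 1.79% the full cAMP response element and 0.475% the HNF4 site. Neither Hnf4a window held the TATA box, either ATF motif or the HNF4 site, and both held the CCAAT box once, on the minus strand.

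Hnf4a measured 10.94, 10.99 and 11.02 in the 3 Atf7-/- IVF livers and 11.74, 11.69 and 11.78 in the 3 Atf7-/- natural mating livers. The WT livers had 11.10, 10.95 and 11.09 after IVF and 11.28, 11.14 and 10.76 after natural mating. Each naturally conceived Atf7-/- liver thus exceeded all 9 others, and the remaining 3 groups overlapped one another. The SD within groups was 0.04 in both Atf7-/- groups, 0.08 in WT IVF livers and 0.27 in WT natural mating livers.

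In Atf7-/- livers IVF lowered Hnf4a, with a log2 fold change of -0.76 (SE 0.12, 95% interval -1.02 to -0.49) and an adjusted p of 0.00252 by limma. This is 0.592 times the level of naturally conceived Atf7-/- livers. Hnf4a was the 1 member probe set of 9 called in this comparison, where 6.78% of all probe sets were called. The call was kept with each of the 6 arrays left out in turn, at log2 fold changes between -0.78 and -0.74.

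Without IVF, loss of ATF7 went with more Hnf4a. Atf7-/- livers stood 0.68 above WT livers on the log2 scale (SE 0.12, 95% interval 0.41 to 0.94, adjusted p = 0.0039 by limma), or 1.60 times. Again Hnf4a was the 1 probe set of 9 called, against 7.5% of all probe sets. Leaving out the third WT natural mating array, the liver with 10.76, gave 0.53 with an adjusted p of 0.0042, below the fold threshold.

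Between IVF groups, Hnf4a differed by -0.06 (95% interval -0.33 to 0.20, adjusted p = 0.961) in Atf7-/- relative to WT livers. IVF in WT livers moved it by -0.01 (95% interval -0.28 to 0.25, adjusted p = 0.959). The effect of IVF in Atf7-/- minus that in WT livers was -0.74 (SE 0.17, adjusted p = 0.0260 by limma), where 6.18% of all probe sets and 1 of 9 member probe sets were called. That call was lost without any one of 7 arrays, the first and the third of Atf7-/- IVF, Atf7-/- natural mating and WT IVF and the third of WT natural mating, with values between -0.85 and -0.59 and adjusted p between 0.0143 and 0.0635 over all 12 omissions.

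**Figure D2:**
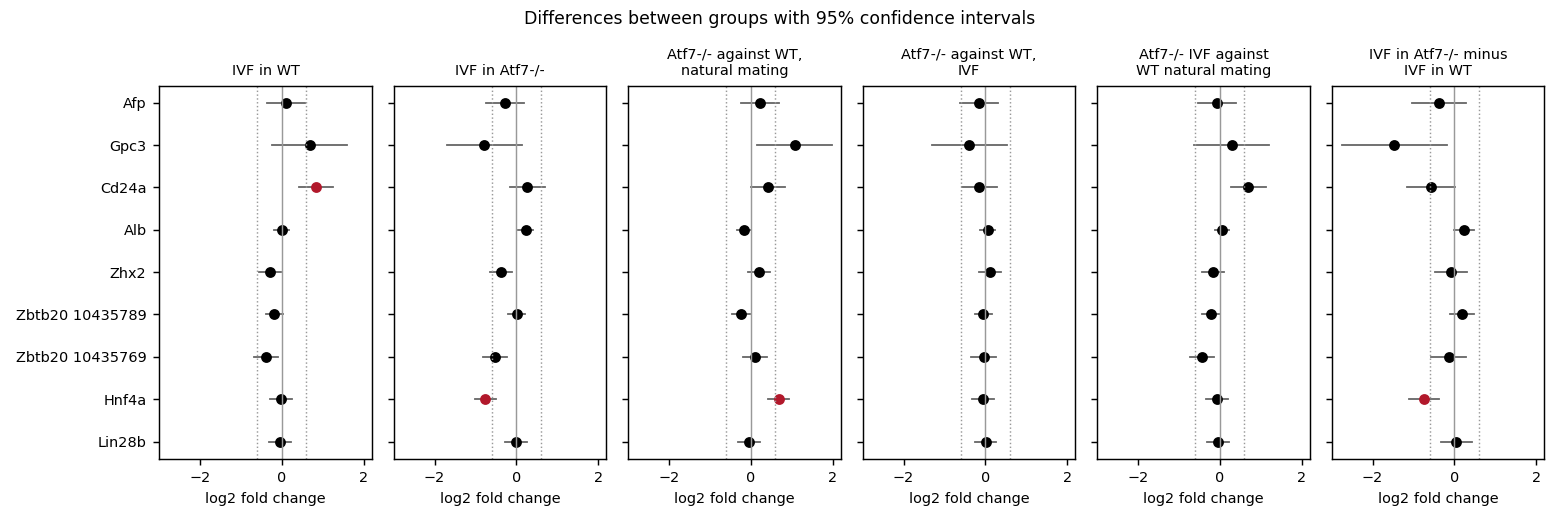
Log2 fold change of the 9 member probe sets in each comparison, tested minus reference as the panel titles read, with limma's 95% confidence interval as a line. Red points were called, grey dotted lines mark the fold threshold of 0.6, and the calls are Cd24a for IVF in WT and Hnf4a for IVF in Atf7-/-, for Atf7-/- against WT after natural mating and for the difference of the IVF effects.

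A list of 27 measured genes known as HNF4A targets in hepatocytes was read beside the factor itself. In Atf7-/- livers IVF called none of them higher and 5 lower, where 3.51% of all probe sets were called lower. The 5 were Apoa4 (apolipoprotein A-IV, log2 fold change -1.51), Pklr (liver pyruvate kinase, -1.32), Gys2 (liver glycogen synthase, -0.93), Cyp8b1 (the sterol 12-alpha-hydroxylase that sets cholic acid output, -0.86) and Abcg8 (a subunit of the biliary cholesterol exporter, -0.71). Abcg8, the smallest of these, falls outside the rule of naming at most 4 genes a list and was added after its value was seen. The median of the list was -0.06, against 0.01 over all probe sets, and 10 of the 27 had positive log2 fold changes.

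In WT livers, where the log2 fold change of Hnf4a was -0.01, IVF called none of the 27 targets higher and 4 lower, against 1.67% of all probe sets called lower. Apoa4 (-1.89) and Gys2 (-1.11) were among them, with adjusted p of 0.00471 and 0.00681, and in both genotypes these 2 calls held with each array left out. The others were Cyp7a1 (-2.25, adjusted p = 0.0357) and Nr1i3 (-0.88, adjusted p = 0.0445). Cyp7a1 kept its call in 1 of 6 omissions and Nr1i3 in 0 of 6, with adjusted p up to 0.118 and 0.129. Pklr lay at 10.82, 12.16 and 10.76 in Atf7-/- IVF livers and at 12.51, 12.58 and 12.62 in Atf7-/- natural mating livers. In WT livers it lay at 11.87, 12.06 and 11.97 after IVF and at 11.09, 10.96 and 11.82 after natural mating. The naturally conceived Atf7-/- livers were thus highest for Pklr as for Hnf4a, but for Pklr the second Atf7-/- IVF liver came close to them. Pklr's call for IVF in Atf7-/- held only without that liver, where the adjusted p was 0.00129, and was lost without any other of the 6 arrays, with adjusted p up to 0.0938. The Cyp8b1 call held only without the first Atf7-/- IVF array and that of Abcg8 without the first of either Atf7-/- group, with adjusted p up to 0.106 and 0.0858 over the omissions.

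After natural mating, 3 HNF4A targets were called higher and 1 lower in Atf7-/- than in WT livers, against 3.83% and 3.67% of all probe sets. Pklr (1.28), Cyp8b1 (0.93) and Cdh1 (E-cadherin, 0.78) were higher, and Nr1i3 (the constitutive androstane receptor, -0.95) was lower. The list's median was 0.05, against -0.02 over all probe sets. Cdh1 held its call without each array in turn. Pklr held it only without the third WT natural mating array, Cyp8b1 lost it without the first Atf7-/- natural mating or the second or the third WT natural mating array, and Nr1i3 lost it without the second Atf7-/- natural mating or the first WT natural mating array, with adjusted p up to 0.0924, 0.0757 and 0.077.

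The effects of IVF differed between genotypes for 5 targets, 1 higher and 4 lower in Atf7-/- than in WT, against 2.72% and 3.46% of all probe sets. Cyp7a1, cholesterol 7-alpha-hydroxylase, which starts the making of bile acids, had the largest difference of the 5 at 3.43 (IVF effect 1.18 in Atf7-/- and -2.25 in WT). Pklr (-2.00), Cdh1 (-0.84), Mttp (the lipid transfer protein of lipoprotein assembly, -0.75) and, the smallest and added after its value was seen, Apoc3 (apolipoprotein C-III, -0.67) were lower. Each of these 5 calls was lost when 1 or more of the 12 arrays was left out, with adjusted p up to 0.11. After IVF no target was called between genotypes by limma, where 2 probe sets in all, 0.00575%, were called, and 2 of the 27 had an unadjusted p under 0.05.

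**Figure D3:**
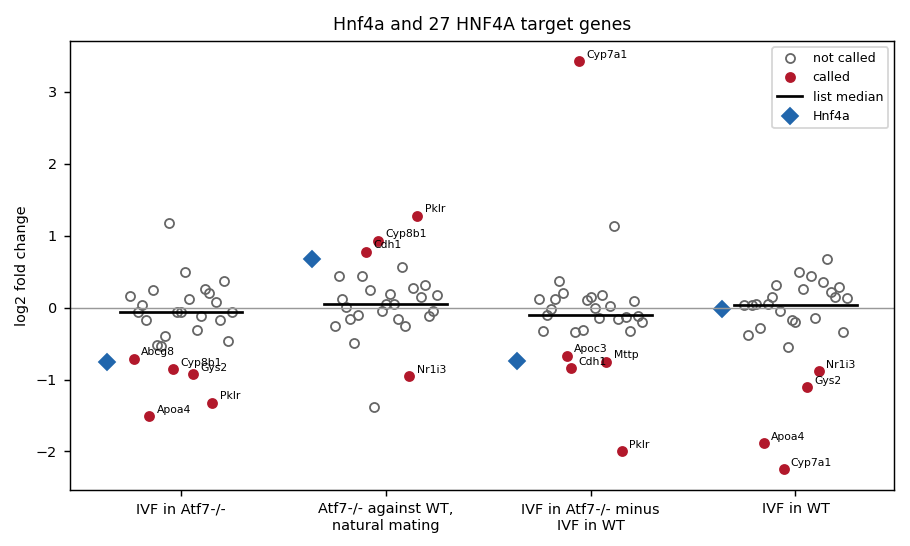
Log2 fold change of 27 HNF4A target genes (circles, red where called and named) with the list's median as a bar and Hnf4a as a blue diamond, in 4 comparisons. Hnf4a lies at -0.76, 0.68, -0.74 and -0.01 from left to right, while the medians of the targets lie at -0.06, 0.05, -0.10 and 0.04.

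The 3 genes whose levels followed Hnf4a most closely over the 12 livers were Igsf11 (Pearson's r 0.989), Sh3d19 (0.982) and Nudt9 (0.974). These r describe arrays that share the 4 groups. With the group means removed r was 0.917, 0.892 and 0.878, and the highest then belonged to Ube2h (0.970), Dhrs4 (0.961) and Klhl24 (0.961).

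Beside Hnf4a, 18 regulators of the Afp and Alb genes were measured. With Hnf4a counted, 1 of 19 was called higher and 3 lower for IVF in Atf7-/-, against 3.27% and 3.51% of all probe sets. After natural mating 2 were called higher and 1 lower in Atf7-/- than in WT livers, against 3.83% and 3.67%. At an unadjusted p under 0.05 by limma it was 11 of 19 (26% of all) and 7 of 19 (26.6% of all). In Atf7-/- livers IVF went with less Dbp (a clock-controlled activator of the albumin promoter, -1.96), more Hnf4g (the sister receptor of HNF4A, 0.71) and less Tbx3 (a T-box repressor of hepatoblasts, -0.60). After natural mating Atf7-/- livers had less Cebpa (-0.78) and more Tbx3 (0.73) than WT livers. Cebpa, which with HNF4A drives hepatocyte genes, lay at 9.90, 10.22 and 9.89 in Atf7-/- natural mating livers, against 10.85, 10.79 and 10.72 in WT natural mating livers, without overlap. It measured 10.55, 10.04 and 10.32 in Atf7-/- IVF livers and 10.35, 10.34 and 10.31 in WT IVF livers, between those groups apart from an overlap with the naturally conceived Atf7-/- livers. Naturally conceived Atf7-/- livers thus had the highest Hnf4a and, on average, the lowest Cebpa.

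In WT livers IVF called 1 regulator, Dbp, lower (-2.28), against 1.67% of all probe sets called lower. Against WT natural mating livers, Atf7-/- IVF livers had less Dbp (-2.47) and Cebpb (-0.89) and more Hnf4g (0.73). In that comparison 1.24% of all probe sets were called lower and 1.9% higher. Dbp and the lower Cebpa after natural mating held without each array in turn. The Hnf4g call for IVF in Atf7-/- was lost without the third array of either Atf7-/- group (log2 fold change down to 0.58, adjusted p up to 0.054). The Cebpb and Hnf4g calls against WT natural mating livers were each kept in 2 of 6 omissions (adjusted p up to 0.127 and 0.0806). Tbx3 lost its IVF call without the second or the third Atf7-/- IVF or the first or the third Atf7-/- natural mating array (adjusted p up to 0.121), and its genotype call without the first or the third Atf7-/- natural mating or the second WT natural mating array (up to 0.0569). Foxa1, Foxa2 and Foxa3, the pioneer factors of hepatocytes, and Nr5a2, an activator of Afp, were not called anywhere.

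Cd24a encodes a small glycosylphosphatidylinositol-anchored sialoglycoprotein of hepatic progenitors, bile duct cells, red cell precursors and B cells. Its values were 8.40, 8.77 and 7.98 in WT IVF livers and 7.47, 7.36 and 7.80 in WT natural mating livers. The groups did not overlap. The difference was 0.84 on the log2 scale (SE 0.19, 95% interval 0.42 to 1.26, adjusted p = 0.0228 by limma), or 1.79 times. It was the 1 probe set of 9 called for IVF in WT, where 4.52% of all probe sets were called. The call was lost without the first or the second WT IVF or the first or the second WT natural mating array, with log2 fold changes between 0.65 and 1.05 and adjusted p up to 0.0781 over the 6 omissions, and with a fit on the 6 WT arrays alone (adjusted p = 0.0845).

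In Atf7-/- livers Cd24a measured 8.26, 8.07 and 8.39 after IVF and 7.87, 7.89 and 8.15 after natural mating. The ranges overlapped by a little and the difference of 0.27 (95% interval -0.15 to 0.69) had an adjusted p of 0.427. All 9 livers with either IVF or loss of ATF7 were above the 3 WT natural mating livers. Against those, the log2 fold change was 0.43 (adjusted p = 0.180) in Atf7-/- natural mating livers and 0.70 (adjusted p = 0.0575) in Atf7-/- IVF livers. No member was called for Atf7-/- IVF against WT natural mating livers, where 3.14% of all probe sets were called. By unadjusted p under 0.05 it was 3 of 9, against 21.3%. The Cd24a effect of IVF differed by -0.57 between Atf7-/- and WT livers (95% interval -1.16 to 0.02, adjusted p = 0.244).

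Proliferation genes and markers of several cell types, among them cells that carry Cd24a, were read on the same arrays. For IVF in WT, all 19 measured proliferation genes had positive log2 fold changes with a median of 1.04, and 2 of them (Bub1 and Pcna) were called. Of all probe sets 2.85% were called higher. At an unadjusted p under 0.05 by limma it was 15 of the 19, against 24.9% of all probe sets. With an array left out, Bub1 kept its call in 1 of 6 fits and Pcna in 0 of 6, with adjusted p up to 0.0851 and 0.0892. Their mean log2 value was 7.85 to 8.05 in WT IVF livers and 6.65 to 7.10 in WT natural mating livers, so that it moved in the same direction as Cd24a. Of 8 cholangiocyte and progenitor markers none was called, with list means of 6.07 to 6.17 in WT IVF livers and 5.79 to 6.15 in WT natural mating livers. Of 8 erythroid markers, the globin genes not among them, none was called, with list means of 6.09 to 6.67 in WT IVF livers and 5.92 to 6.35 in WT natural mating livers. Of 10 B cell markers Ms4a1 was called higher (0.93, kept in 2 of 6 omissions), with list means of 6.13 to 6.20 in WT IVF livers and 5.99 to 6.41 in WT natural mating livers. Of 11 neutrophil and 7 T cell markers none was called, and 6 and 1 had positive log2 fold changes. Neutrophil list means were 5.53 to 5.63 in WT IVF livers and 5.33 to 5.82 in WT natural mating livers. T cell list means were 5.78 to 5.84 and 5.67 to 6.06. An unadjusted p under 0.05 by limma was found for 1 of 8 cholangiocyte, 0 of 8 erythroid and 3 of 10 B cell markers, against the same 24.9%. For neutrophil and T cell markers it was 2 of 11 and 0 of 7. The part of these cells in the Cd24a result was not tested. The WT IVF liver with the highest Cd24a value (8.77) also had the highest erythroid (6.67), proliferation (8.05) and cholangiocyte (6.17) means of its group and the lowest B cell mean (6.13). In Atf7-/- livers the proliferation genes had 6.84, 8.22 and 6.88 after IVF and 7.30, 7.15 and 7.92 after natural mating, which overlap. For the difference of the IVF effects 0 of the 19 were positive, with a median of -1.355. None was called, against 6.18% of all probe sets, and 12 of 19 had an unadjusted p under 0.05 by limma, against 22.1%.

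**Figure D4:**
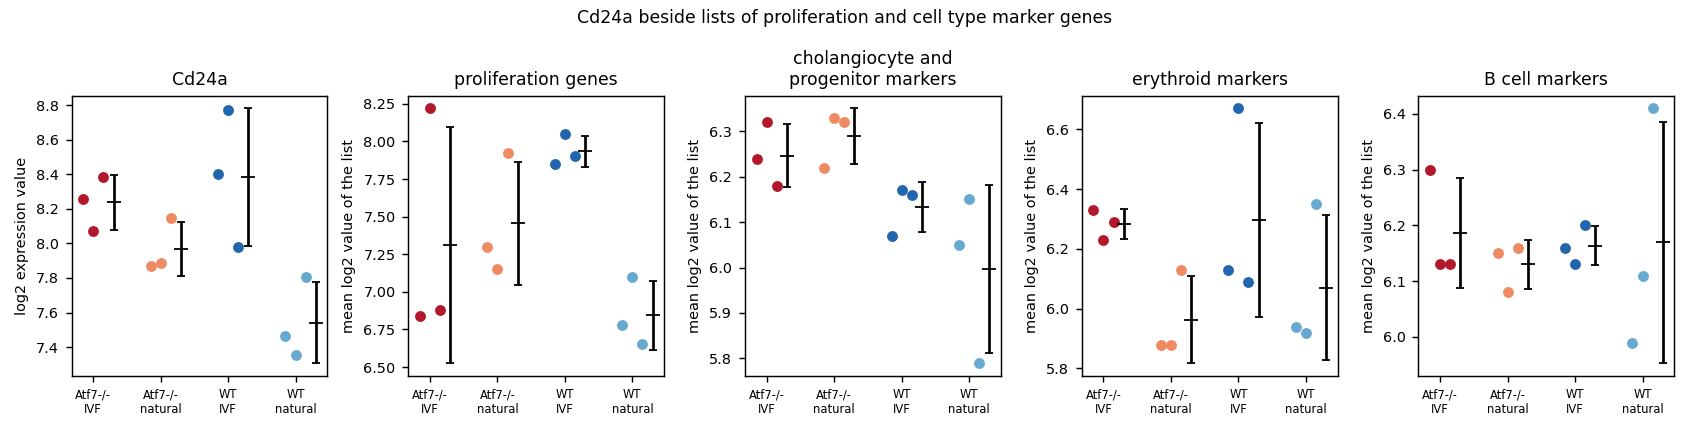
Cd24a (log2 expression value) and the mean log2 value of 4 gene lists in the 12 livers, with 1 point per liver and the group mean ± SD beside it (n = 3). Axes differ between panels. In WT IVF livers Cd24a and the proliferation mean (7.85 to 8.05) both lie above naturally conceived WT livers (6.65 to 7.10 for the proliferation mean), while the other 3 lists overlap between those groups.

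Krt19, a keratin of bile ducts and progenitors, lay at 6.83, 6.55 and 6.76 in Atf7-/- IVF livers, 6.53, 6.63 and 6.52 in Atf7-/- natural mating livers and 6.47, 6.50 and 6.52 in WT IVF livers. The WT natural mating livers had 5.95, 5.94 and 5.97 and were lower than the 9 others, as they were for Cd24a. In WT livers Krt19 averaged 6.50 after IVF and 5.96 after natural mating, and IVF in WT was not called for it. In that comparison 1 of the 8 cholangiocyte and progenitor markers had an adjusted p of at most 0.05 by limma, against 8.62% of all probe sets. Krt19 was called for Atf7-/- against WT after natural mating (0.60, lost without the second array of either group, lowest value 0.57) and for Atf7-/- IVF against WT natural mating livers (0.76). It was the 1 called of the 8 cholangiocyte and progenitor markers in each, where 3.83% and 1.9% of all probe sets were called higher. In both comparisons 6 of the 8 had positive log2 fold changes. The lowest values were -0.08 and -0.40, and the medians 0.16 and 0.25. S1pr1 (r = 0.916), Inhbc (0.909) and Pde3a (0.902) were closest to Cd24a over the 12 livers, and r fell to 0.776, 0.759 and 0.729 with the group means removed.

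Gpc3, glypican-3, is a heparan sulfate proteoglycan of the fetal liver surface that reappears in hepatocellular carcinoma. It varied more among livers of 1 group than any other member, with a within-group SD of 0.59. It measured 7.90, 8.55 and 7.75 in Atf7-/- IVF livers and 8.69, 9.18 and 8.67 in Atf7-/- natural mating livers. The WT livers had 8.08, 9.22 and 8.08 after IVF and 8.39, 8.11 and 6.84 after natural mating. Naturally conceived Atf7-/- livers lay above both Atf7-/- IVF and WT natural mating livers without overlap.

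The log2 fold change of Gpc3 was 1.07 for Atf7-/- against WT after natural mating (SE 0.41, 95% interval 0.16 to 1.98), with an adjusted p of 0.120 by limma. It was -0.79 for IVF in Atf7-/- (adjusted p = 0.269) and 0.68 for IVF in WT livers (adjusted p = 0.342). The IVF effects differed by -1.47 (95% interval -2.76 to -0.18, adjusted p = 0.168). None of these passed. The third WT natural mating liver, at 6.84, set much of the value after natural mating, since without it the log2 fold change was 0.60. The intervals were wide enough to hold both no change and a change of more than the fold threshold for IVF in either genotype. Cadm3 (r = 0.935), Cd300lg (0.926) and Ctdsp1 (0.924) were closest to Gpc3 over the 12 livers, and stayed at 0.898 or above with group means removed.

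Afp and Alb are neighbours, with Alb first and no gene of the RefSeq table between them, and 14111 bases from the end of Alb to the start of Afp. Their windows are shown because both genes are textbook targets of the factors described here and differ in their developmental course. The Afp window lies at chr5:90490464-90490763 and the Alb window at chr5:90460620-90460919, both on the plus strand of GRCm38.p6, with capitals as above.
Afp: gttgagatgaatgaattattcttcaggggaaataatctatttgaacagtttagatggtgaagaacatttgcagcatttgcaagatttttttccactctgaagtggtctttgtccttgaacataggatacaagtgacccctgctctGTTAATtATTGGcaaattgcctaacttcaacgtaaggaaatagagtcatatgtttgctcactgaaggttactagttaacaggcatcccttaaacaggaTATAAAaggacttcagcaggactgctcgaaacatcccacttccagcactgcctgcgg
Alb: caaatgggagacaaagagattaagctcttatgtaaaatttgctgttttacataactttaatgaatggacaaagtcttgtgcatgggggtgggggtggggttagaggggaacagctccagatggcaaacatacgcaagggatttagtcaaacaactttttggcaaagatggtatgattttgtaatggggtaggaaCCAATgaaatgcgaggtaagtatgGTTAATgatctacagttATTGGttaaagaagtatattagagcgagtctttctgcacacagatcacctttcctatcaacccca

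Each window held the HNF1 half-site once on the plus strand, at base -105 in Afp and at base -32 in Alb. The TATA box occurred in Afp, at base -7 from the RefSeq start, and in no other of the 7 member windows. The CCAAT box occurred in all 7. The 7 windows covered 6 of the 8 genes, Gpc3, Zbtb20 and Lin28b beside those shown, and Cd24a and Zhx2 had no entry. None of the 7 held either ATF motif or the HNF4 site.

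Afp was dim on these arrays, below the median of all probe sets when averaged over the 12 livers, as was Lin28b. The other 7 member probe sets were above it. Afp measured 5.71, 5.89 and 5.64 in Atf7-/- IVF livers and 5.93, 6.13 and 6.0 in Atf7-/- natural mating livers. It measured 5.60, 6.30 and 5.83 in WT IVF livers and 5.37, 6.19 and 5.87 in WT natural mating livers. The Atf7-/- groups did not overlap, IVF livers being lower, and both lay within the range of the WT livers. IVF gave a log2 fold change of -0.28 in Atf7-/- (95% interval -0.74 to 0.19, adjusted p = 0.474) and 0.10 in WT livers (95% interval -0.36 to 0.57, adjusted p = 0.805). For loss of ATF7 it was 0.21 after natural mating (adjusted p = 0.590) and -0.17 after IVF (adjusted p = 0.938). The genes closest to Afp were Cdca7 (r = 0.853), Spats2 (0.850) and Lrrk1 (0.819), lower than for most other members.

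Alb, the albumin gene, was among the steadiest, with a within-group SD of 0.06. Its values were 13.87, 13.89 and 14.05 in Atf7-/- IVF livers and 13.75, 13.68 and 13.70 in Atf7-/- natural mating livers. The WT livers had 13.86, 13.86 and 13.93 after IVF and 13.95, 13.87 and 13.84 after natural mating. The naturally conceived Atf7-/- livers, highest for Hnf4a, were the 3 lowest for Alb, as for the mean of the hepatocyte markers, which include Alb. Their difference was small and did not pass, at 0.22 for IVF in Atf7-/- (95% interval 0.05 to 0.40, adjusted p = 0.0971) and -0.18 for Atf7-/- against WT after natural mating (95% interval -0.35 to -0.000141, adjusted p = 0.188). Afm, the afamin gene of the same family, was not called in any comparison (adjusted p 0.164 or more). Alb, Afp and Afm thus gave 0 calls of 3 measured in each comparison by limma, and 2 of the 3 had an unadjusted p under 0.05 for IVF in Atf7-/-, against 26% of all probe sets.

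Zhx2 encodes zinc fingers and homeoboxes 2, the postnatal repressor of Afp and Gpc3 first mapped in a mouse strain with persistent AFP. It measured 7.63, 7.63 and 7.44 in Atf7-/- IVF livers, against 7.90, 7.92 and 8.0 in Atf7-/- natural mating livers. In WT livers it measured 7.16, 7.66 and 7.54 after IVF, against 7.69, 7.70 and 7.82 after natural mating. IVF livers were below naturally conceived ones without overlap in both genotypes. The log2 fold change was -0.37 in Atf7-/- (SE 0.12, 95% interval -0.65 to -0.10, adjusted p = 0.0748) and -0.28 in WT livers (95% interval -0.56 to -0.01, adjusted p = 0.186). Neither passed, and the interval in Atf7-/- livers reaches past the fold threshold. The effects differed by -0.09 (95% interval -0.48 to 0.30). Of the paralogues, Zhx1 had a log2 fold change of 0.50 for IVF in WT livers, with an adjusted p of 0.0299 and under the fold threshold, and Zhx3 did not pass. Prrc2c (r = 0.937), Urb1 (0.930) and Actn1 (0.925) were closest to Zhx2.

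Of 6 measured genes reported as ZHX2-dependent in mouse, 1 was called higher and 1 lower with IVF in Atf7-/- livers, against 3.27% and 3.51% of all probe sets. The counts were the same for Atf7-/- IVF against WT natural mating livers, against 1.9% and 1.24%, and none was called in the other comparisons. At an unadjusted p under 0.05 by limma, 3 of the 6 passed for IVF in WT (24.9% of all probe sets) and 2 for the difference of the IVF effects (22.1%). Between genotypes 1 passed after natural mating (26.6%) and 1 after IVF (6.12%). Lpl, lipoprotein lipase, was higher (0.84 and 1.15) and Cyp4a12a, a male-enriched cytochrome P450, was lower (-2.90 in both). In WT livers, where neither was called, IVF went with differences in the same directions. Lpl averaged 10.77 after IVF and 9.98 after natural mating, and Cyp4a12a 4.86 and 7.10, without overlap for either gene. The Lpl call for IVF in Atf7-/- was kept in 1 of 6 omissions of an array (adjusted p up to 0.122) and that against WT natural mating livers in 5 of 6. The Cyp4a12a call was kept in 6 of 6 for IVF in Atf7-/- and in 2 of 6 against WT natural mating livers, with log2 fold changes between -3.64 and -1.99. The list holds Afp and Gpc3 themselves, which were not called.

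Zbtb20 encodes a BTB zinc-finger factor that binds the Afp promoter and represses it in the adult liver. Its 2 probe sets gave different pictures. The brighter of them (10435789) read 10.24, 10.23 and 10.30 in Atf7-/- IVF livers and 10.27, 10.22 and 10.24 in Atf7-/- natural mating livers. It read 10.48, 10.13 and 10.31 in WT IVF livers and 10.44, 10.57 and 10.45 in WT natural mating livers. The Atf7-/- groups overlapped throughout, and the log2 fold change for IVF was 0.01 in Atf7-/- (95% interval -0.20 to 0.22) and -0.18 in WT livers (95% interval -0.39 to 0.03).

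The other probe set (10435769) read 9.39, 9.19 and 9.19 in Atf7-/- IVF livers, against 9.93, 9.67 and 9.76 in Atf7-/- natural mating livers. It read 9.32, 9.22 and 9.37 in WT IVF livers, against 9.51, 9.55 and 10.01 in WT natural mating livers. All 6 IVF livers were below all 6 naturally conceived livers. The log2 fold change for IVF in Atf7-/- livers was -0.53 (SE 0.14, 95% interval -0.83 to -0.23), with an adjusted p of 0.0263 but under the fold threshold of 0.6, and the log2 fold change in WT livers was -0.39 (adjusted p = 0.105). The annotation does not say which transcripts each probe set covers, so both are given.

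Lin28b was dim in all groups, at 4.32, 4.33 and 4.23 in Atf7-/- IVF livers and 4.19, 4.38 and 4.35 in Atf7-/- natural mating livers. The WT livers had 4.55, 4.19 and 4.13 after IVF and 4.21, 4.49 and 4.33 after natural mating. All groups overlapped, and the log2 fold changes lay between -0.06 and 0.04 over the 6 comparisons with adjusted p of 0.818 or more. Of 12 measured genes of the LIN28 and let-7 axis, which include Lin28a, Trim71, Hmga2 and Igf2bp3, 0 were called in each comparison by limma. At an unadjusted p under 0.05 2 of the 12 passed for IVF in WT (24.9% of all probe sets) and 0 for Atf7-/- against WT after IVF (6.12% of all). In the others 1 of the 12 passed, namely IVF in Atf7-/- (26% of all), Atf7-/- against WT after natural mating (26.6%), Atf7-/- IVF against WT natural mating (21.3%) and the difference of the IVF effects (22.1%). The let-7 precursors themselves are not in that list and were looked up after other values were seen. Of their 9 probe sets, 1 was called for IVF in WT (4.52% of all probe sets), 1 for IVF in Atf7-/- (6.78%) and 1 for Atf7-/- IVF against WT natural mating (3.14%). In these comparisons 3, 3 and 2 of the 9 had an unadjusted p under 0.05 by limma, against 24.9%, 26% and 21.3% of all. In the other 3 comparisons 0 were called, and 1, 0 and 1 had an unadjusted p under 0.05 (natural mating, IVF and the difference of the IVF effects). The shares of all were 26.6%, 6.12% and 22.1%. The called probe set was Mirlet7d each time, with log2 fold changes of 0.90 (adjusted p = 0.00916), 0.64 (adjusted p = 0.0244) and 0.65 (adjusted p = 0.0406). It was not refitted without single arrays. Igf2bp3, a fetal RNA-binding protein and let-7 target, came nearest, at 0.49 for IVF in WT livers (adjusted p = 0.0547).

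A wider list of 17 measured fetal and oncofetal genes was read for context. For IVF in WT, 2 were called higher and 1 lower, against 2.85% and 1.67% of all probe sets, and for IVF in Atf7-/- 3 higher and 2 lower, against 3.27% and 3.51%. Between genotypes after natural mating 2 were called higher, against 3.83% of all probe sets, and after IVF none was called, against 0.00575%. Atf7-/- IVF livers had 4 higher and 1 lower than WT natural mating livers, against 1.9% and 1.24% of all probe sets. The list's medians lay between 0.03 and 0.10 in all 6 comparisons.

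**Figure D5:**
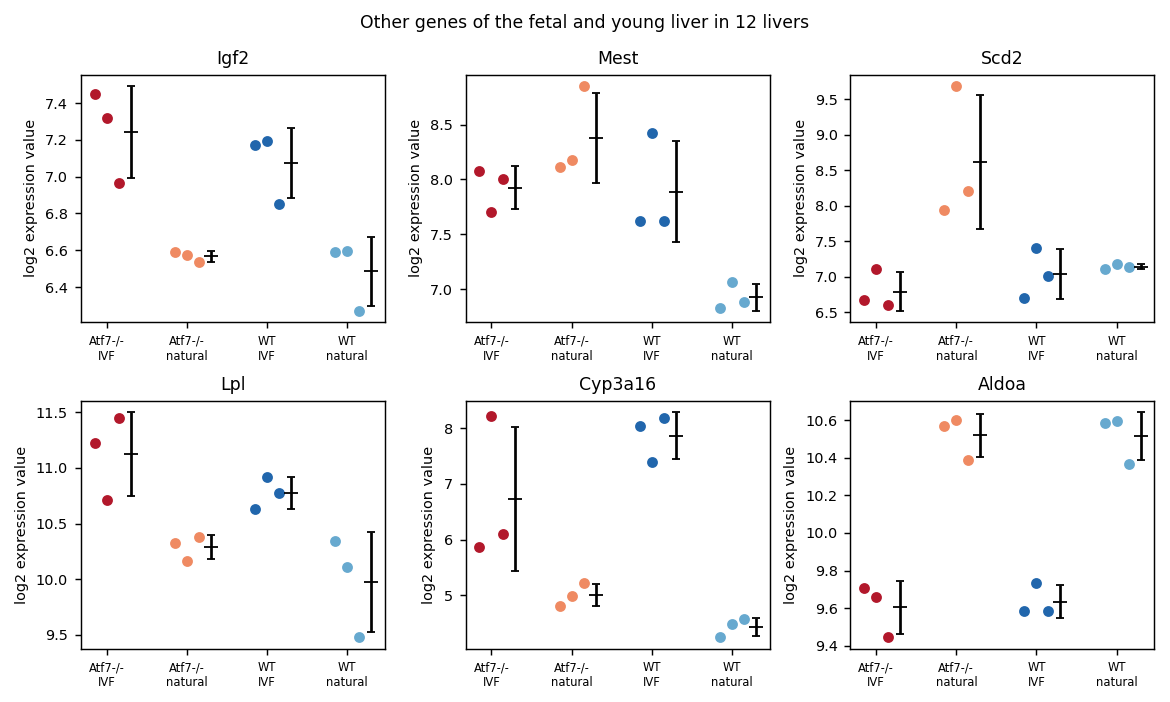
Log2 expression value of 6 genes of the fetal or young liver in the 12 livers, with 1 point per liver and the group mean ± SD beside it (n = 3). Axes differ between panels. Igf2, Lpl and Cyp3a16 lie higher and Aldoa lower in IVF than in naturally conceived livers, while Mest lies lowest in WT natural mating livers (6.83 to 7.06) and Scd2 highest in Atf7-/- natural mating livers (7.93 to 9.69).

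Igf2, the fetal growth factor, measured 7.45, 7.32 and 6.96 in Atf7-/- IVF livers and 6.59, 6.58 and 6.53 in Atf7-/- natural mating livers. It measured 7.17, 7.20 and 6.85 in WT IVF livers and 6.59, 6.60 and 6.27 in WT natural mating livers. Every IVF liver was above every naturally conceived one. Igf2 ranked below the 4 genes named by the rule in its list and was singled out after its values were seen. The log2 fold change for IVF was 0.68 in Atf7-/- livers (adjusted p = 0.0109) and 0.59 in WT livers (adjusted p = 0.0314, under the fold threshold), and the effects differed by 0.09 (adjusted p = 0.852). Without the first Atf7-/- IVF array the value in Atf7-/- livers was 0.57, under the threshold.

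Mest, a maternally imprinted gene of fetal tissues, measured 8.07, 7.70 and 8.0 in Atf7-/- IVF livers and 8.11, 8.18 and 8.85 in Atf7-/- natural mating livers. It measured 7.62, 8.42 and 7.62 in WT IVF livers and 6.83, 7.06 and 6.88 in WT natural mating livers, which were below all 9 others, as for Cd24a and Krt19. It was called for Atf7-/- against WT after natural mating (1.46, adjusted p = 0.00259, held without each array), for IVF in WT (0.96, adjusted p = 0.0330, held only without the first WT IVF array) and for the difference of the IVF effects (-1.42, adjusted p = 0.0307). The call of 1.0 for Atf7-/- IVF against WT natural mating livers was lost without any 1 of the 6 arrays.

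Scd2, the fetal stearoyl-CoA desaturase, followed the same high group as Hnf4a. It measured 6.67, 7.10 and 6.60 in Atf7-/- IVF livers, against 7.93, 9.69 and 8.21 in Atf7-/- natural mating livers, and 6.70, 7.40 and 7.01 in WT IVF livers, against 7.10, 7.18 and 7.14 in WT natural mating livers. The log2 fold change was -1.82 for IVF in Atf7-/- (adjusted p = 0.00868) and 1.47 for Atf7-/- against WT after natural mating (adjusted p = 0.0233, lost without any 1 WT natural mating array, up to 0.0608).

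Cyp3a16, a cytochrome P450 of fetal and young liver, rose with IVF in WT livers by 3.43 on the log2 scale. It measured 8.03, 7.39 and 8.18 in WT IVF livers, against 4.25, 4.49 and 4.57 in WT natural mating livers, a wide gap. In Atf7-/- livers it measured 5.87, 8.22 and 6.10 after IVF, against 4.81, 4.98 and 5.22 after natural mating, and the 3 IVF livers were spread widely around a log2 fold change of 1.73. The call in Atf7-/- livers was lost without any 1 Atf7-/- natural mating array, with adjusted p up to 0.115, and the log2 fold change was 0.98 without the second Atf7-/- IVF array. Near-identical Cyp3a genes may share its probes. For the difference of the IVF effects 1 of the 17 listed genes, Mest, was called, against 6.18% of all probe sets. Cyp3a16 and Scd2 were thus not called in that test. Aldoa, the glycolytic aldolase of fetal liver and muscle, was lower after IVF, at 9.71, 9.66 and 9.45 in Atf7-/- IVF livers against 10.57, 10.60 and 10.39 in Atf7-/- natural mating livers, and at 9.58, 9.73 and 9.58 in WT IVF livers against 10.58, 10.59 and 10.37 in WT natural mating livers. Both Aldoa calls (-0.92 in Atf7-/- and -0.88 in WT) held without each array in turn.

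Counting probe sets rather than genes, the members' groups did not overlap for 6 of 9 in IVF against natural mating within Atf7-/-, against 32.2% of all probe sets, with 1 above and 5 below. For Atf7-/- against WT after natural mating it was also 6 of 9, against 31.9%, with 4 above and 2 below. It was 3 of 9 for IVF in WT (29.4% of all), 4 of 9 for Atf7-/- IVF against WT natural mating (22.6%) and 0 of 9 for Atf7-/- against WT after IVF (10.9%). No member was called between Atf7-/- and WT after IVF, and none had an unadjusted p under 0.05, where 6.12% of all probe sets did. At an unadjusted p under 0.05 there were 3 of 9 for IVF in WT (24.9% of all), 4 of 9 for IVF in Atf7-/- (26% of all), 5 of 9 for Atf7-/- against WT after natural mating (26.6% of all) and 2 of 9 for the difference of the IVF effects (22.1% of all). At an adjusted p of at most 0.05 with no fold threshold, 1 of 9 passed for IVF in WT (8.62% of all), 2 of 9 for IVF in Atf7-/- (12.9% of all), 0 of 9 for Atf7-/- IVF against WT natural mating (5.78% of all) and 1 of 9 for the difference of the IVF effects (7.25% of all). The comparisons share arrays, so that a liver group that stands apart, such as naturally conceived Atf7-/- livers, enters more than 1 of them.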

How the data were processed

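Total RNA of 12 male mouse livers was extracted with TRIzol and hybridised to Affymetrix Mouse Gene 1.0 ST arrays. The deposited values are log2 expression values that the authors made with robust multi-array average (RMA), with affy and limma named in the submitters' processing notes. Their versions were not given in the sources used here, nor was a genome build. Intensities of single probes were not used here, and the number of arrays limits the precision.

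The values were taken as deposited. Group means were fitted over the 12 arrays with limma 3.58.1 in R 4.3.3 with 8 residual degrees of freedom. The Benjamini-Hochberg adjustment ran over 34760 probe sets, and a call needed an adjusted p up to 0.05 and a log2 fold change of 0.6 or more in either direction. The script was tested on simulated data. Of all probe sets, 21640 had 1 gene symbol, 1321 several and 11799 none, and those with several were not named. Promoter windows came from RefSeq (GRCm38.p6).

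The members and gene lists were chosen with earlier results of these data known. At most 4 called genes per list and comparison were named by size, with exceptions stated, and the 3 genes most correlated with each member. Fits on the compared groups alone, with a replicate block, robust variances, array weights, other scaling, filters or thresholds, and without each array, were alternatives.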

Additional observations from a re-analysis of the deposited data

Results flagged for a closer look

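The effect of IVF differed between Atf7-/- and WT livers, by limma's test of the difference itself, for 1 member and 12 genes of the lists. Of all probe sets 6.18% were called in this test, 2.72% higher and 3.46% lower. By list it was 1 lower of 17 fetal and oncofetal genes and 1 higher and 1 lower of 19 regulators, Hnf4a included. Of 27 HNF4A targets 1 was higher and 4 lower. Values are log2 and give the effect in Atf7-/- minus that in WT livers. Hnf4a differed by -0.74, with an IVF effect of -0.76 in Atf7-/- and -0.01 in WT livers (adjusted p = 0.0260). Mest differed by -1.42 (effects -0.46 and 0.96, adjusted p = 0.0307) and Cebpa by 0.76 (effects 0.30 and -0.46, adjusted p = 0.0329). Among HNF4A targets, Cyp7a1 differed by 3.43 (adjusted p = 0.0292), Pklr by -2.00 (adjusted p = 0.0277), Cdh1 by -0.84 (adjusted p = 0.0496), Mttp by -0.75 (adjusted p = 0.0282) and Apoc3 by -0.67 (adjusted p = 0.0219).

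Of 25 measured genes of mature hepatocytes, 4 were called higher and 1 lower, against 2.72% and 3.46% of all probe sets. Among them Asl, a urea cycle enzyme, differed by 1.14 (adjusted p = 0.0348), Cyp3a25, a cytochrome P450, by 1.04 (adjusted p = 0.0115) and Baat, which conjugates bile acids, by 0.92 (adjusted p = 0.0229). Fbp1, a gluconeogenic enzyme, differed by -0.70 (adjusted p = 0.00710) and Arg1, the hepatic arginase, by 0.68 (adjusted p = 0.00785). With each of the 12 arrays left out in turn, the calls for Cyp3a25, Fbp1 and Arg1 were kept in all 12 fits. The others were kept in fewer, which was 5 for Hnf4a, 8 for Mest, 3 for Cebpa, 5 for Cyp7a1, 2 each for Pklr, Cdh1 and Asl, 4 for Mttp and 7 each for Apoc3 and Baat. With 3 livers in each group, single livers were not tested for standing apart.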

How the results depend on the processing

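Of the member calls, Hnf4a for IVF in Atf7-/- held under every alternative run. For IVF in WT, 0 members were called with a fit on the compared groups alone and at adjusted p of at most 0.01. For IVF in Atf7-/-, 2 were called with no fold threshold. For Atf7-/- against WT after natural mating, 2 were called with the replicate block, the added one being Gpc3 (adjusted p = 0.0395). For Atf7-/- IVF against WT natural mating livers, 1 (Cd24a) was called with array weights, with median centring, with the filter on dim probe sets and with single-symbol probe sets only. For the difference of the IVF effects, 0 were called at adjusted p of at most 0.01. Replicate numbers were not used as pairs in the main fit. Of 18 same-numbered pairs, 3 had a correlation of deviations over 0.1 (range -0.124 to 0.239). These joined the genotypes within 1 mode of conception, at 0.138 and 0.239 for IVF and 0.181 for natural mating. With 3 livers in each group such values cannot exclude pairing or shared processing.

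Without each array in turn, 0 to 1 members were called for IVF in WT, for Atf7-/- against WT after natural mating, for Atf7-/- IVF against WT natural mating and for the difference of the IVF effects. Signs turned for values near 0. For IVF in WT, median centring gave Alb 0.0647, Hnf4a 0.0558 and Lin28b 0.0135. The mean of the Zbtb20 probe sets gave -0.26 for IVF in Atf7-/-, -0.0741 after natural mating and 0.0262 for the difference of the IVF effects. Between genotypes after natural mating Lin28b became 0.00798 with centring and 0.0147 with quantile normalization. Between genotypes after IVF it became -0.0447 with array weights, -0.0308 with centring and -0.0233 with quantile normalization. For the difference of the IVF effects it became -0.0388 with centring and -0.038 with quantile normalization.

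Leaving out arrays gave these log2 ranges. For IVF in WT they were -0.12 to 0.29 for Afp, -0.0292 to 0.0267 for Alb, -0.16 to 0.0967 for Hnf4a and -0.19 to 0.0242 for Lin28b. For IVF in Atf7-/- they were -0.00857 to 0.0262 for the brighter Zbtb20 probe set and -0.0728 to 0.0194 for Lin28b. For Atf7-/- against WT after natural mating they were -0.00837 to 0.40 for Afp and -0.11 to 0.0372 for Lin28b, and after IVF -0.32 to 0.0302 for Afp, -0.35 to 0.0483 for Cd24a, -0.00524 to 0.0863 for Alb, -0.0356 to 0.22 for Zhx2, -0.14 to 0.0372 for the brighter Zbtb20 probe set and -0.0771 to 0.13 for Lin28b. For Atf7-/- IVF against WT natural mating they were -0.28 to 0.13 for Afp, -0.18 to 0.59 for Gpc3, -0.0103 to 0.0812 for Alb, -0.23 to 0.0318 for Hnf4a and -0.12 to 0.0217 for Lin28b. For the difference of the IVF effects they were -0.24 to 0.0137 for Zhx2 and -0.0397 to 0.17 for Lin28b. The causes were not tested.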
